A study of Mus musculus with 8 samples.

Results

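The genes described here encode the machinery that copies DNA: 39 genes for origin licensing, the replicative helicase, polymerases, clamp loading, nucleotide supply and chromatin assembly, chosen by name from the 49315 genes of each count file. They were followed by RNA sequencing in isolated back skin epidermis, labelled as keratinocytes, of mice aged 22 months, in 3 wild type (WT) and 5 Tgfa knockout (KO) libraries. The product of Tgfa is a growth factor that signals through the EGF receptor, and the series as titled concerns hair follicle function and hair loss in aging mice without it. No other allele, treatment or time point is named. The structure of the Tgfa allele, the strain background and whether each library came from 1 animal are not stated in the labels, so p-values measure only the spread between these samples, which may be technical.

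Replication is prepared when the origin recognition complex, Cdc6 and Cdt1 load the ring of MCM proteins around DNA, a step called licensing. In S phase Cdc45 and the GINS complex join MCM to form the active helicase, polymerases alpha, epsilon and delta copy the strands, and PCNA, a sliding clamp placed by replication factor C, holds polymerases on the template. Many of these genes are transcribed as cells leave G1, under E2F transcription factors. In epidermis, cells in S phase lie mainly in the basal layer and in growing hair follicles.

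The promoters of these genes carry the E2F motif more often than promoters at large. Of the 39 genes, 32 had a promoter in the RefSeq table (build GRCm38.p6, 250 bases before to 50 after a start site). An E2F motif, searched as TTTCCCGC, TTTCGCGC, TTTGCCGC or TTTGGCGC on both strands, was found in 14 of these 32 genes (43.8%), against 704 of all 27025 genes in the table (2.6%). By role it was found in 4 of 5 MCM genes, 3 of 4 licensing genes, 3 of 5 polymerase and primase genes, 2 of 7 clamp and strand maturation genes, 1 of 3 helicase activation genes, 1 of 3 chromatin assembly genes and 0 of 5 nucleotide supply genes. A match is a description of letters and not a binding site. The median GC content was 58.3% in member promoters and 52.7% in all promoters, and the shares were not matched for it. Promoters with a match are shown for 7 genes: Mcm5, Orc1 and Rfc3, which had the smallest p of their roles, Pold1 and Uhrf1, which are taken up with them, and Mcm3 and Mcm7 as further subunits of the ring that holds Mcm5. They are written 5′ to 3′ on the strand of the gene, with E2F matches in capitals. Those of Mcm5 overlap, with their initial bases at -153 and -149 relative to the start site. Mcm7 and Uhrf1 each have another start site in the table, with no match in its window.
Mcm5, chr8:75109259-75109558, plus strand: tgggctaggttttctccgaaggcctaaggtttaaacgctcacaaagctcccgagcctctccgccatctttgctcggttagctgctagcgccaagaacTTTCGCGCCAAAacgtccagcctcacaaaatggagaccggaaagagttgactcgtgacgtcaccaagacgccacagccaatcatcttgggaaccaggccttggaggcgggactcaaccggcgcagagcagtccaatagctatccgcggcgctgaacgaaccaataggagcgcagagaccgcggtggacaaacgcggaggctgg
Mcm3, chr1:20820263-20820562, minus strand: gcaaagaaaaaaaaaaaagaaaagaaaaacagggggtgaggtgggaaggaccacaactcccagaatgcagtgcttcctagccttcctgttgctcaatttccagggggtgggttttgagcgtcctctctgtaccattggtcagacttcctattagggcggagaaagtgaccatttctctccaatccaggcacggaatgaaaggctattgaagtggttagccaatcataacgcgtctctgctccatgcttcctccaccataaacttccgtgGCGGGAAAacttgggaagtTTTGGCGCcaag
Mcm7, chr5:138171834-138172133, minus strand: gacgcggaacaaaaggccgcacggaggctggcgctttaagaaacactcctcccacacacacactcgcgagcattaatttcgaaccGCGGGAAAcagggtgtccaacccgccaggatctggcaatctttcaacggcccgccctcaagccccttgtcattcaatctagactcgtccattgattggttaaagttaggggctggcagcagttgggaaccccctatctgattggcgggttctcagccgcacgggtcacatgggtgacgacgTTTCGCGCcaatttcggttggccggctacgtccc
Orc1, chr4:108579204-108579503, plus strand: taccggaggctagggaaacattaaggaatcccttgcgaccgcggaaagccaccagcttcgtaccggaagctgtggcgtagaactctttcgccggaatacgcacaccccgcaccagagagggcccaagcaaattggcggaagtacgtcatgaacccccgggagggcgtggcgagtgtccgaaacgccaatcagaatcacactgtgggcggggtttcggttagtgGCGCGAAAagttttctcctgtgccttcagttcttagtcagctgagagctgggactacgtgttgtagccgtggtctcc
Pold1, chr7:44548766-44549065, minus strand: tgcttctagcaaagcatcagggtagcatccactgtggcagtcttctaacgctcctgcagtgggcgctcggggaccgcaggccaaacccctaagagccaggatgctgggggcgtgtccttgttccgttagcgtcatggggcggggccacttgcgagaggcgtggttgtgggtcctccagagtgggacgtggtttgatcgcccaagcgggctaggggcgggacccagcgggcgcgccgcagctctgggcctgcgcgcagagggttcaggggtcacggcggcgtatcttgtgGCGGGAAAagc
Rfc3, chr5:151651159-151651458, minus strand: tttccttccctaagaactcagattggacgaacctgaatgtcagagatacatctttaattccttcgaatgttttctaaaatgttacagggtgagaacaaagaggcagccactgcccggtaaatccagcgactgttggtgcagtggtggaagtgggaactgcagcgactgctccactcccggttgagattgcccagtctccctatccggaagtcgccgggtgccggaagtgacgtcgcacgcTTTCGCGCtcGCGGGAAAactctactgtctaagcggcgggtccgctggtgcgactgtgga
Uhrf1, chr17:56304063-56304362, plus strand: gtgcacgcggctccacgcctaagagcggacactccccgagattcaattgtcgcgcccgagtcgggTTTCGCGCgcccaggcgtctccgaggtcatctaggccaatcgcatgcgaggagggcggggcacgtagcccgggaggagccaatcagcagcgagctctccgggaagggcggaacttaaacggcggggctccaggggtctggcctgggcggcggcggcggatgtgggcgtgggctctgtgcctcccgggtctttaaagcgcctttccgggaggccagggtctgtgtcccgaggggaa

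The libraries differed in depth and quality apart from genotype. Total counts were 12968728 to 18292303 in WT and 5313552 to 17417500 in KO. KO replicate 2 was the shallowest, and olfactory and vomeronasal receptor genes, which are not known as epidermal genes, took 4.58 counts per kb in it. The rate was 1.84 in WT replicate 3, 0.933 in WT replicate 2 and 0.265 or less elsewhere. At each library's rate such counts would make up a median of 23.1% of a replication gene's count in KO replicate 2, 8.37% in WT replicate 3 and 3.69% or less elsewhere. The gene Malat1 took 6.61% of all counts in WT replicate 3, 4.88% in the library labelled KO replicate 1 and 1.34% to 1.84% in the others. Tgfa was 92.47, 85.07 and 111.7 CPM in WT and 34.39 to 70.15 CPM in KO replicates 2 to 5 (log2 fold change over all libraries -0.61, edgeR adjusted p = 0.899). It was 131.7 CPM in the library labelled KO replicate 1, above all WT libraries in spite of that label. Tgfa RNA remained in each KO library and the allele structure is not stated. The level thus cannot settle whether that label is right. Keratinocyte markers were present throughout: the basal markers Krt5, Krt14, Col17a1, Itga6 and Itgb4, all above 1 CPM in each library, summed to 3575 to 11500 CPM in WT and 4770 to 12400 CPM in KO, lowest in WT replicate 3 and KO replicate 2. Fibroblast markers (5) summed to 33.7 to 39.4 CPM in WT and 3.94 to 73.5 in KO, endothelial markers (3) to 1.06 to 8.83 and 2.16 to 40.3, and T cell markers of the epidermis (4) to 19.5 to 40.5 and 16.3 to 67.7. The names of all WT libraries and of KO replicates 1 and 2 end in br and those of KO replicates 3 to 5 in bl, endings the labels do not explain. In bulk tissue, fewer cells of a type and less RNA per cell cannot be told apart.

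Replication genes had mostly higher mean levels in KO, and none passed the test. In edgeR's quasi-likelihood test, 35 of the 39 had a positive log2 fold change (KO minus WT), with a median of 0.51 and a range of -0.26 to 1.26, while 61.9% of all 19239 tested genes were positive, with a median of 0.16. All 39 passed the filter on low counts. None was called at an adjusted p under 0.05 in either direction, against 0.0052% of all genes called higher and 0% called lower, and the members' adjusted p ran from 0.665 to 0.998. At an unadjusted p under 0.05, 6 were higher (Mcm5, Pole, Pold1, Rfc3, Chaf1a and Uhrf1) and 0 lower, against 4.44% and 1.85% of all genes. With any 1 library left out edgeR still called 0 members, against 0.00428% of all genes lower without WT replicate 1, 0.00531% higher without the library labelled KO replicate 1 and 0% in the remaining cases. With counts at the receptor gene rate subtracted it called 0, against 0.00552% higher. Limma voom called 0 members and 0% of all genes in each direction, and DESeq2 called 0 members against 0.574% of all genes higher and 0.237% lower. In DESeq2 the members' median was 0.47 and that of all genes 0.52, so that the excess over all genes was not present under that setting, where genes of low count also enter. In edgeR with no filter on low counts the medians were 0.49 and 0.53. With the filter and DESeq2 size factors in edgeR they were 0.47 and 0.12.

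**Figure D1:**
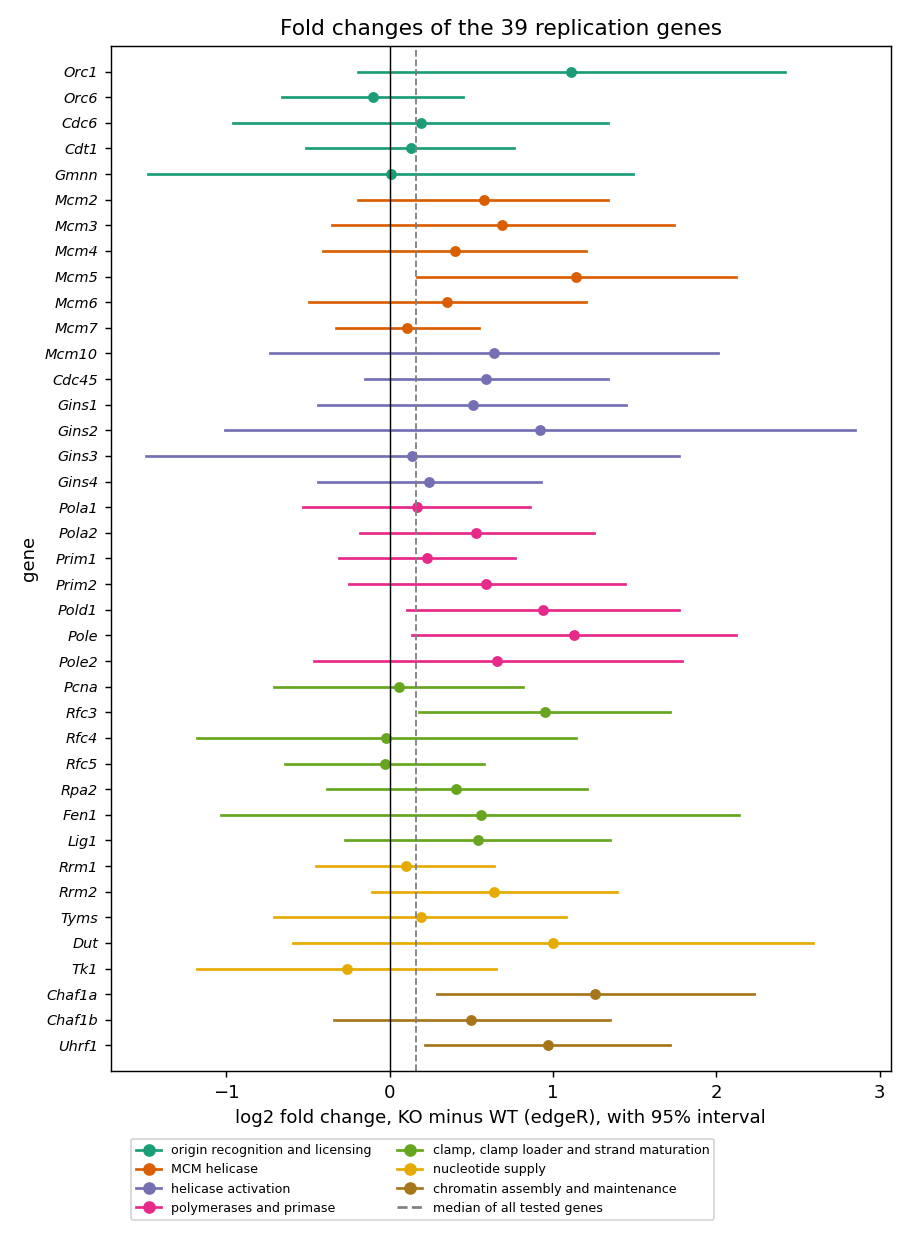
Log2 fold change of each replication gene, KO minus WT, by edgeR on 3 WT and 5 KO libraries (points), with its 95% interval (lines), coloured by role. The points lie between -0.26 and 1.26, and the intervals of Mcm5, Pole, Pold1, Rfc3, Chaf1a and Uhrf1 lie above 0 before adjustment.

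With TMM scaling, few genes of any kind separated the genotypes library by library, and no replication gene did. In 0 of 39 was each KO library above each WT library, against 3.4% of all tested genes, and in 0 was each below, against 1.75%. WT replicate 1 was the highest WT library for 25 members, and the library labelled KO replicate 1 was the lowest KO library for 29. Without WT replicate 1, 12 members separated, against 4.43% of all genes. With the library labelled KO replicate 1 left out 11 did, against 9.34%, namely Mcm7, Cdc45, Gins1, Gins2, Pold1, Pole, Rfc3, Dut, Chaf1a, Chaf1b and Uhrf1. In KO replicate 2, counts at the receptor gene rate would be 12.3% (Mcm7) to 75.2% (Gins2) of the counts of these genes. They would be 57.2% for Chaf1b and 30% for Gins1. Whether these genes separate once such counts are subtracted was not tested with that library left out. With this library, WT replicate 3 and KO replicate 2 all left out 15 separated, against 23.2%. The WT libraries left then all end in br and the KO libraries left all in bl, so ending and genotype cannot be told apart. Among the libraries ending in br alone, 2 separated (Gins1 and Pola2), against 8.62%, and with DESeq2 size factors in place of TMM 1 did (Rfc3), against 3.21%. The median member, as log2(CPM + 0.5) less its WT mean, was 0.36, -0.03 and -0.4 in WT replicates 1 to 3, 0.04 in the library labelled KO replicate 1, and 0.74, 0.65, 0.76 and 0.44 in KO replicates 2 to 5. The library labelled KO replicate 1 thus lay among the WT libraries in this measure. Its Tgfa level was the highest of the 8, and it shared a high Malat1 share with WT replicate 3. Whether either bears on its replication gene levels was not tested.

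**Figure D2:**
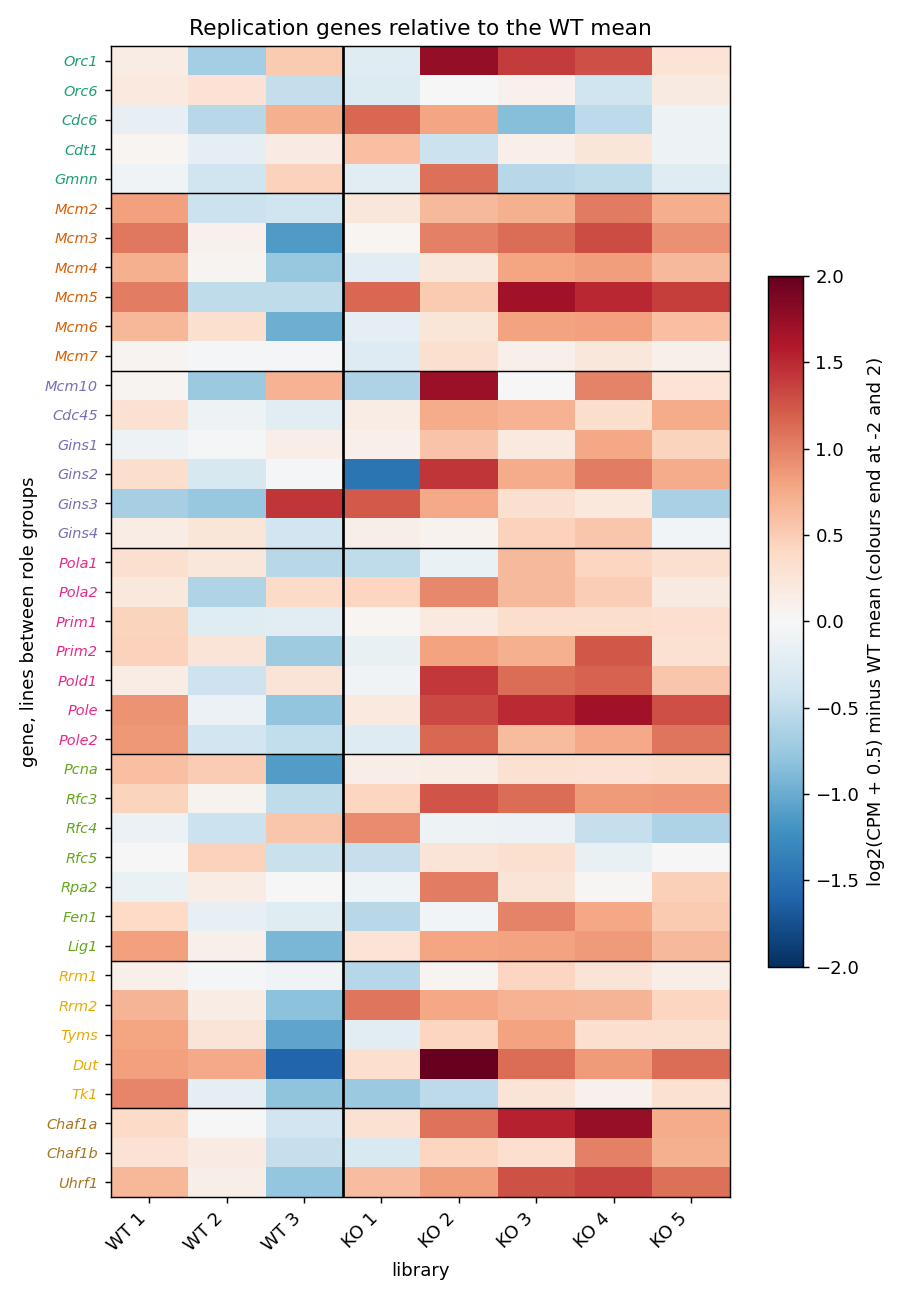
Each square is 1 gene in 1 library, coloured by log2(CPM + 0.5) minus the mean of the 3 WT libraries, with genes ordered by role. Most squares of KO replicates 2 to 5 are red, WT replicate 3 is mostly blue outside licensing and helicase activation, and WT replicate 1 is mostly red.

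Spread within the groups was described for the members alone, from 3 WT and 5 KO libraries, with no share over all genes beside it. The SD was a larger share of the mean in WT for 23 of 39 genes, with a median of 39.5% in WT and 28.1% in KO. WT replicate 3 was the lowest WT library for 25 members. It is also the WT library with the fewest counts on basal keratinocyte markers. Summed over all 39 genes, levels in WT averaged 495 ± 148 CPM (SD, n = 3), and those in KO 632 ± 103 CPM (SD, n = 5). The sums overlapped, at 351.3 to 647.6 CPM in WT and 461.9 to 717.1 in KO. Per 1000 CPM of the 5 basal markers they were 69.3 ± 25.2 in WT and 76.9 ± 32.5 in KO, and overlapped as well. On this scale they were highest in KO replicate 2 (134) and WT replicate 3 (98.3). The other KO libraries had 57.3 to 71.7 and the other WT libraries 53.3 and 56.3, so the higher KO mean rests on KO replicate 2.

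Among licensing genes, Orc1 had the largest difference and the licensing factors Cdt1 and Cdc6 showed little. Orc1, the ATPase subunit of the origin recognition complex, was 2.855, 1.389 and 3.83 CPM in WT and 2.064, 9.726, 7.44, 6.904 and 3.132 CPM in KO (log2 fold change 1.11, SE 0.59, edgeR adjusted p = 0.836). KO replicates 2 to 4 lay above all WT libraries and the other KO libraries among them. Cdt1, which brings MCM to origins, was 9.795, 8.269 and 10.79 CPM in WT and 14.81, 6.947, 10.25, 11.41 and 8.908 CPM in KO (0.13, SE 0.28). Its inhibitor geminin, encoded by Gmnn, which blocks a repeat of licensing in S and G2 phase, was 1.959, 1.455 and 3.048 CPM in WT and 1.25 to 1.695 CPM in KO apart from KO replicate 2 at 5.036 (0.01, SE 0.67). The log2 fold change of Gmnn was -0.57 without KO replicate 2. Cdc6, an ATPase that loads MCM with Orc, was 20.56 CPM in the library labelled KO replicate 1, 15.98 in KO replicate 2 and 15.16 in WT replicate 3. These libraries had the lowest quality weights of the 8 in the weighted fit below, 0.28 to 0.37. It was 8.004 and 6.02 CPM in WT replicates 1 and 2, which also end in br. In the KO libraries ending in bl it was 4.814 to 8.351 CPM (0.19, SE 0.52). Orc6, the smallest subunit of the origin recognition complex, was 14.85 to 25.53 CPM in WT and 15.75 to 23.8 in KO (-0.10, SE 0.25).

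The MCM genes, whose products form 1 ring of 6 different subunits, had no call. All 6 had positive log2 fold changes, from 0.11 for Mcm7 (95% interval -0.33 to 0.55) to 1.14 for Mcm5, whose intervals overlap, and differences between them were not tested. Mcm5 (ENSMUSG00000005410, chromosome 8, 75109569 to 75128439) was 15.95, 5.16 and 5.159 CPM in WT and 17.47, 11.11, 25.26, 22.42 and 20.53 CPM in KO (SE 0.44, with a 95% interval of 0.17 to 2.12; edgeR adjusted p = 0.689 and exact permutation p = 0.0357). KO replicate 2 lay below WT replicate 1, and the other KO libraries lay above all WT libraries. Mcm7 was 23.62, 22.49 and 22.35 CPM in WT and 19.09, 28.66, 24.57, 26.65 and 24.43 CPM in KO, the steadiest member in WT, with an SD of 3.05% of the mean. Both genes carry E2F matches in the promoters shown. The ratio of Mcm5 to Mcm7 counts, which no scaling between libraries can alter, was 0.675, 0.229 and 0.231 in WT and 0.915, 0.388, 1.03, 0.842 and 0.84 in KO, with KO replicate 2 inside the WT range. Mcm2 was 23.51, 9.525 and 9.77 CPM in WT and 15.26, 20.67, 21.57, 27.16 and 21.78 CPM in KO (0.58, SE 0.34), with all KO libraries above WT replicates 2 and 3 and all but KO replicate 4 below WT replicate 1. Log2 fold changes were 0.69 for Mcm3, 0.40 for Mcm4 and 0.35 for Mcm6. Mcm3 was 22.22, 11.11 and 4.533 CPM in WT, a wide range that took in the library labelled KO replicate 1 at 10.83 and KO replicates 2 and 5 at 21.54 and 20.18. Per kb of exon, mean levels in WT were 7.18 CPM for Mcm4, 6.9 for Mcm6, 5.16 for Mcm7, 3.36 for Mcm3, 2.19 for Mcm5 and 2.05 for Mcm2, so that the highest was 3.5 times the lowest in WT and 3.08 times in KO, where Mcm4 (9.44) and Mcm2 (3.06) were the ends.

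**Figure D3:**
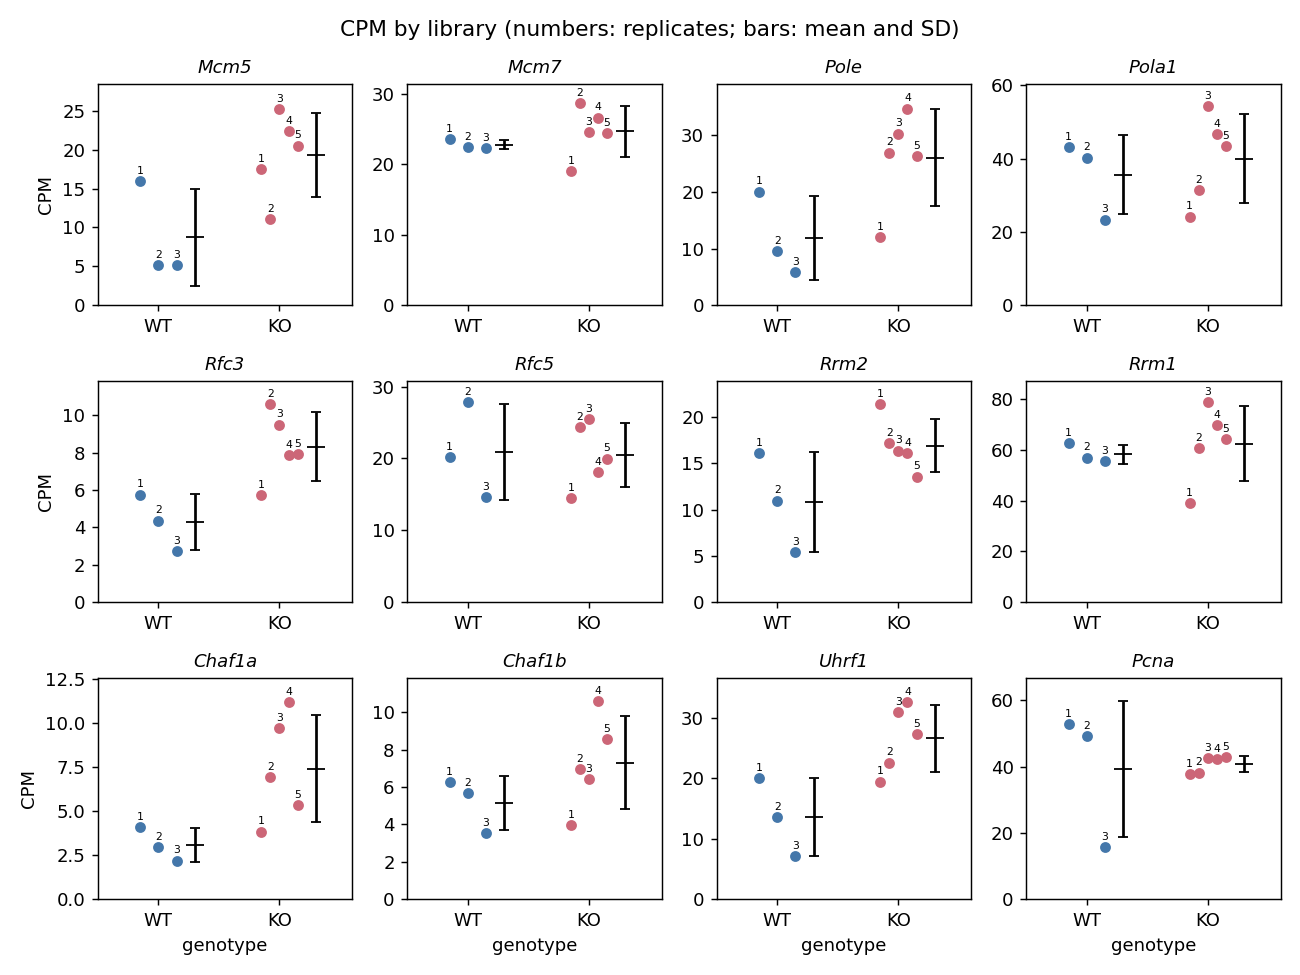
CPM of 12 replication genes in each library (points, numbered by replicate, WT blue and KO red), with mean and SD as bars, for subunits of the same complex or enzyme side by side. Mcm5, Pole, Rfc3, Rrm2 and Chaf1a have a higher KO mean, while for Mcm7, Pola1, Rfc5, Rrm1 and Pcna the means of the groups lie close together.

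Helicase activation genes were scarce, and all 6 had positive log2 fold changes with 95% intervals that include 0. Cdc45, which joins MCM when the helicase fires, was 4.87, 3.572 and 3.283 CPM in WT and 4.348, 6.773, 6.565, 5.078 and 6.82 CPM in KO (0.59, SE 0.34, edgeR adjusted p = 0.848, exact permutation p = 0.0536). All KO libraries but the library labelled KO replicate 1 lay above all WT libraries. Gins1, a GINS subunit, was 2.295, 2.448 and 2.814 CPM in WT and 2.727, 3.994, 2.939, 4.622 and 3.619 CPM in KO (0.51, SE 0.42), with the same order. Gins3, another subunit of GINS, followed 1 library in each group more than genotype: it reached 6.878 CPM in WT replicate 3 and, among KO, 5.896 CPM in the library labelled KO replicate 1, beside 1.125 and 1.231 in the other WT libraries and 1.253 to 4.168 in the other KO libraries (0.14, SE 0.73). Gins2 (0.92, SE 0.87) had 0.1474 CPM in the library labelled KO replicate 1 while the remaining KO libraries had 2.501 to 4.342. It shares 67.3% of its exon length with Gse1 on the opposite strand, and the labels do not say whether counting used strand, so its value is uncertain. Mcm10, a scaffold at the origin, was 0.64 (SE 0.61), with 12.85 CPM in KO replicate 2, where counts at the receptor gene rate would be 47.6% of its count. Gins4 was 0.24 (SE 0.31).

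Among polymerases, the catalytic subunits of epsilon and delta had a KO mean well above the WT mean, and the catalytic subunit of alpha did not. Pole, the leading strand polymerase (ENSMUSG00000007080, chromosome 5, 110286306 to 110337474), was 20.04, 9.592 and 5.862 CPM in WT and 12.01, 26.92, 30.26, 34.69 and 26.24 CPM in KO (1.13, SE 0.44, edgeR adjusted p = 0.695, exact permutation p = 0.0536). KO replicates 2 to 5 exceeded all WT libraries. Pold1, of the lagging strand polymerase (ENSMUSG00000038644, chromosome 7, 44532746 to 44548849), was 7.78, 5.093 and 8.363 CPM in WT and 6.559, 19.28, 15.69, 16.32 and 10.37 CPM in KO (0.94, SE 0.37, edgeR adjusted p = 0.704), again with the library labelled KO replicate 1 alone among the WT values. Pola1, which with primase starts each new strand, was 43.21, 40.28 and 23.37 CPM in WT and 24.17, 31.43, 54.4, 46.56 and 43.29 CPM in KO (0.17, SE 0.31). The ratio of Pole to Pola1 counts was 0.464, 0.238 and 0.251 in WT and 0.497, 0.856, 0.556, 0.745 and 0.606 in KO and did not overlap between groups. This pair was chosen after its values were seen, so the separation is a description. The small subunit Pole2 was 0.66 (SE 0.51), the alpha accessory subunit Pola2 0.53 (SE 0.32), and the primase genes Prim2 and Prim1 0.59 (SE 0.38) and 0.23 (SE 0.24).

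The clamp had nearly equal means, and of the loader subunits among the 39 genes Rfc3 had the largest difference. Pcna, the sliding clamp, had the highest level per kb of the 39 genes, 16.4 CPM in WT and 17 in KO, and was 52.9, 49.15 and 15.71 CPM in WT and 37.88, 38.21, 42.7, 42.34 and 43.01 CPM in KO (0.06, SE 0.34, 95% interval -0.71 to 0.82). WT replicate 3 alone stood low. Rfc3, a replication factor C subunit (ENSMUSG00000033970, chromosome 5, 151642756 to 151651242), was 5.765, 4.366 and 2.736 CPM in WT and 5.749, 10.59, 9.504, 7.874 and 7.933 CPM in KO (0.95, SE 0.35, edgeR adjusted p = 0.683, exact permutation p = 0.0357). Its lowest KO value lay just under the highest WT value. Rfc2, a loader subunit outside the 39 genes, was 8.832 to 13.66 CPM in WT and 17.4 to 24.03 in KO (0.97, SE 0.24, edgeR adjusted p = 0.487). Rfc4, another loader subunit, was 3.246, 2.514 and 5.471 CPM in WT and 7.296, 3.3, 3.251, 2.453 and 2.157 CPM in KO (-0.02, SE 0.52), highest in the library labelled KO replicate 1 and lowest in KO replicate 5. Rfc5 was -0.03 (SE 0.27), and the ratio of Rfc3 to Rfc5 counts was 0.157 to 0.286 in WT and 0.373 to 0.436 in KO, a pair also chosen after its values were seen. Rfc4 shares 12.6% of its exon length with Eif4a2 and Rfc5 10.7% with Wsb2, both on the opposite strand. Lig1, which seals Okazaki fragments, was 19.87, 11.84 and 5.628 CPM in WT and 13.41, 19.45, 19.69, 20.37 and 17.61 CPM in KO (0.54, SE 0.36), inside the WT range in all but KO replicate 4. Rpa2, of the complex that coats single strands, was 0.41 (SE 0.36). Fen1, the flap nuclease, had 6 counts in KO replicate 2 and at most 2.689 CPM in any library (0.56, SE 0.71), and shares 78.8% of its exon length with the antisense gene Gm10143.

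Nucleotide supply genes had a median of 0.19, with 4 of 5 positive and no call. Rrm2, the S phase subunit of ribonucleotide reductase, was 16.12, 10.98 and 5.393 CPM in WT and 21.37, 17.19, 16.38, 16.15 and 13.57 CPM in KO (0.64, SE 0.34, edgeR adjusted p = 0.836, exact permutation p = 0.0357). The library labelled KO replicate 1 was the highest, KO replicates 2 to 4 lay just above WT replicate 1, and KO replicate 5 lay below it. Rrm1, the large subunit, was 62.63, 56.95 and 55.57 CPM in WT and 38.91, 60.61, 78.84, 69.78 and 64.23 CPM in KO (0.10, SE 0.24). The ratio of Rrm2 to Rrm1 counts was 0.257, 0.193 and 0.097 in WT and 0.549, 0.284, 0.208, 0.231 and 0.211 in KO, with KO replicates 3 to 5 inside the WT range. Dut, which clears dUTP, was 4.254, 4.035 and 0.3908 CPM in WT and 2.874, 11.46, 5.314, 4.336 and 5.289 CPM in KO (1.0, SE 0.71). WT replicate 3, with 5 counts, stood low and KO replicate 2 high, and the log2 fold change was 0.46 without WT replicate 3. Tk1, thymidine kinase of the salvage pathway, had the lowest log2 fold change of the 39 genes (-0.26, SE 0.41), with 53.23 CPM in WT replicate 1, above all other libraries (15.09 to 32.92 CPM), and was 0.43 without WT replicate 1. Tyms, thymidylate synthase, was 0.19 (SE 0.40).

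Chromatin assembly genes had the highest median of the 7 roles, at 0.97. Chaf1a, the large subunit of the chromatin assembly factor that places histones behind the fork (ENSMUSG00000002835, chromosome 17, 56040416 to 56068026), was 4.086, 2.977 and 2.189 CPM in WT and 3.832, 6.947, 9.691, 11.18 and 5.359 CPM in KO, the largest log2 fold change of the 39 genes (1.26, SE 0.44, with a 95% interval of 0.29 to 2.23; edgeR adjusted p = 0.665 and exact permutation p = 0.0536). Uhrf1, which reads hemimethylated DNA and recruits the maintenance methyltransferase (ENSMUSG00000001228, chromosome 17, 56303321 to 56323486), was 19.98, 13.56 and 7.113 CPM in WT and 19.46, 22.58, 30.95, 32.64 and 27.28 CPM in KO (0.97, SE 0.34, edgeR adjusted p = 0.665, exact permutation p = 0.0357). In both genes only the library labelled KO replicate 1 fell below the highest WT value. Chaf1b was 6.269, 5.689 and 3.517 CPM in WT and 3.98, 6.947, 6.44, 10.61 and 8.56 CPM in KO (0.50, SE 0.38). The ratio of Chaf1a to Chaf1b counts was 0.523 to 0.652 in WT and 0.626 to 1.5 in KO, and overlapped in KO replicate 5. Chaf1a shares 18.7% of its exon length with Ubxn6 on the opposite strand.

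**Figure D4:**
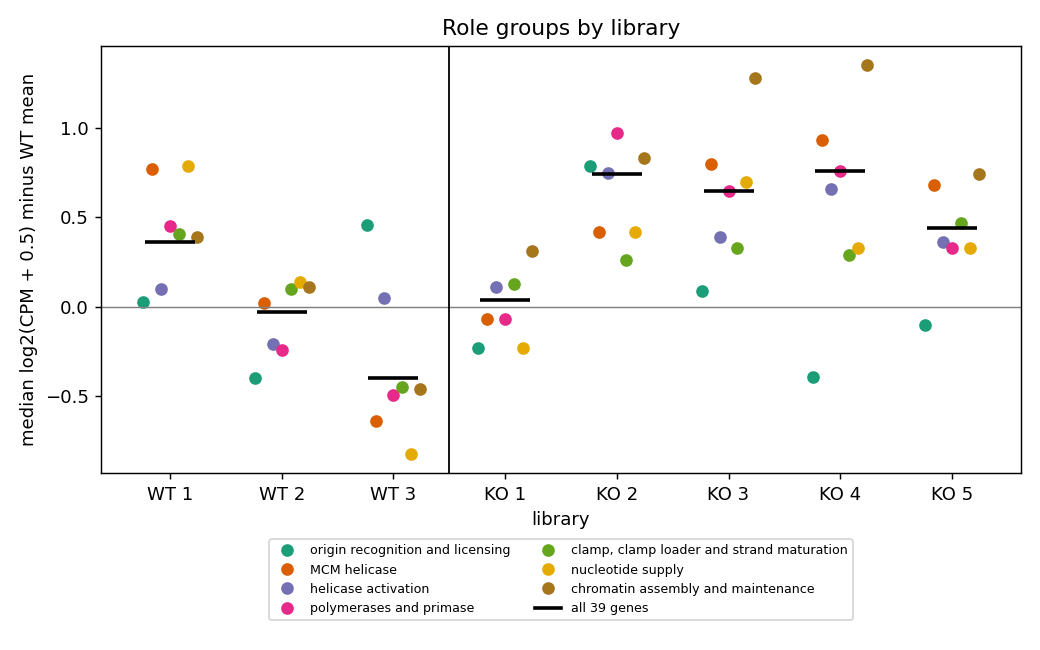
Median over the genes of each role (coloured points) and over all 39 genes (black bars) of log2(CPM + 0.5) minus the WT mean, by library. The chromatin assembly genes reach 1.28 and 1.35 in KO replicates 3 and 4, and the licensing genes are higher in WT replicate 3 (0.46) than in any KO library except KO replicate 2 (0.79).

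Exact permutation p-values are two-sided, on log2(CPM + 0.5), over all 56 ways to assign 3 WT and 5 KO labels, with a smallest possible value of 0.0179. No member reached it, and 4 members had 0.0357, the smallest seen.

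Weighting libraries by quality called 5 members higher in KO and 0 lower. In limma voom with sample quality weights these were Mcm5 (1.46, adjusted p = 0.0227), Pole (1.25, 0.024), Pold1 (1.16, 0.0252), Chaf1a (1.34, 0.0378) and Uhrf1 (0.98, 0.0192), against 3.43% of all genes called higher and 3.17% lower. The weights were 0.28 for the library labelled KO replicate 1, 0.37 for KO replicate 2, 0.34 for WT replicate 3 and 1.47 to 2.26 for the others, so the KO libraries that count are those ending in bl, while all WT libraries end in br, and ending and genotype cannot be told apart there. The number called was 0 without WT replicate 2, KO replicate 3 or KO replicate 4 (against 0%, 0.868% and 0.524% of all genes called higher), and 7 when the library labelled KO replicate 1 was left out (against 5.77%). Leaving out WT replicate 3, the library labelled KO replicate 1 and KO replicate 2 together, edgeR called Pold1, Chaf1a and Uhrf1 higher, against 5.25% of all genes. All WT libraries left then end in br and all KO libraries left in bl, so ending and genotype cannot be told apart there either. Among libraries ending in br alone (3 WT, 2 KO), 26 of 39 members were positive, against 62.2% of all genes, with a median of 0.33, against 0.25, and 0 were called, as were 0 of all genes.

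**Figure D5:**
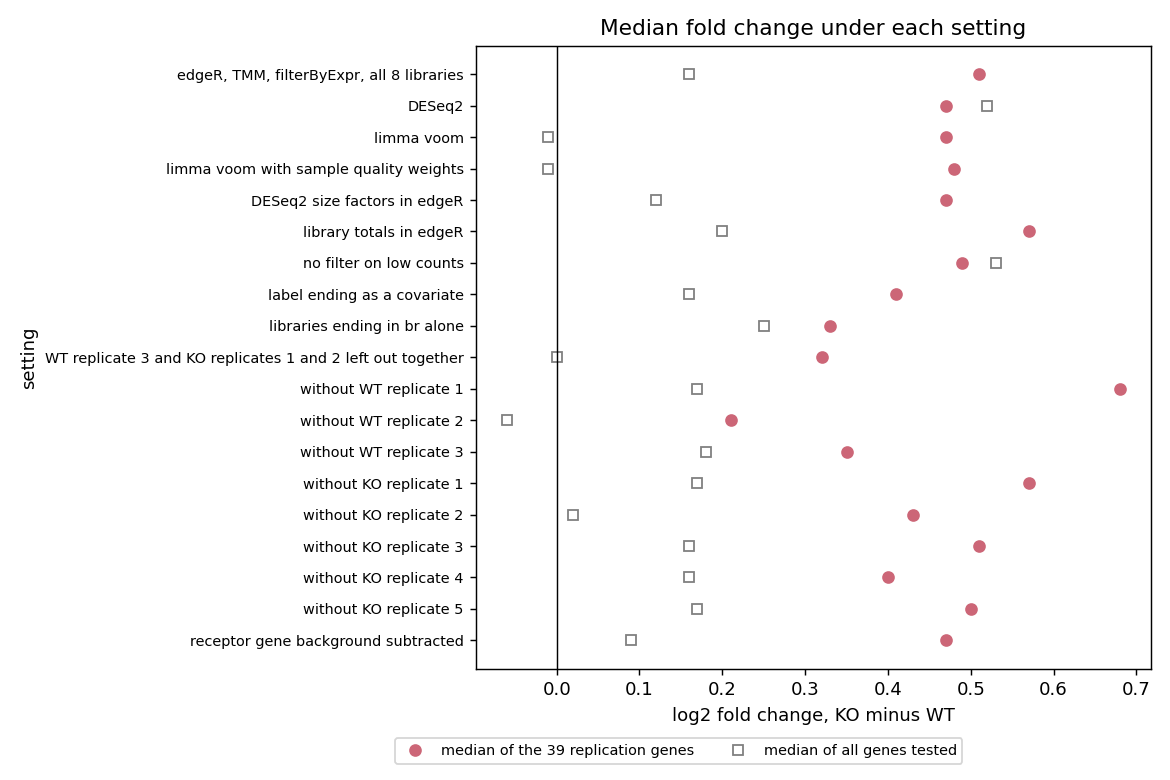
Median log2 fold change, KO minus WT, of the 39 replication genes (filled points) and of all genes tested (open squares) under each setting. The median of the replication genes stays between 0.21 and 0.68, and that of all genes exceeds it in DESeq2 and with no filter on low counts.

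Within the KO group, most members were somewhat higher in libraries ending in bl, with no call. The 2 br libraries also had low quality weights, 0.28 and 0.37, against 1.74 to 2.25 in the bl libraries. Ending and library quality thus cannot be told apart here. Relative to the WT mean, the median member was 0.04 in the library labelled KO replicate 1 and 0.74 in KO replicate 2, both br. It was 0.44 to 0.76 in the bl libraries. EdgeR called 0 of 39 members in either direction between 3 bl and 2 br libraries, and 0% of all genes, though 27 of 39 were higher in bl (median 0.17, against 42.2% of all genes positive and a median of -0.15). All 6 MCM genes were higher in bl, with log2 differences of 0.02 for Mcm7 to 0.69 for Mcm4 (SE 0.23, adjusted p = 0.222). Tk1 was 0.81 higher (SE 0.22, adjusted p = 0.173), and Cdc6 had the most negative value, -1.56 (SE 0.33, adjusted p = 0.154). With KO replicate 2 left out, edgeR called 9 members higher in bl and 2 lower against 11.2% and 12.7% of all genes. With the library labelled KO replicate 1 left out, it called 5 and 3 against 16% and 31.2%, each time with 1 br library, whose spread is then assumed to be that of the bl libraries. Cdc6 was lower in both, and Mcm4, Mcm6, Pola1 and Tk1 were higher in both.

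Beyond these 39 genes, 4 lists of related genes were counted, 111 genes of which 110 were tested, and 0 were called in edgeR in either direction. Each KO library lay above each WT library in 7 of them, against 3.4% of all genes, and below in 2, against 1.75%. DESeq2 called 1 higher, Ticrr, against 0.574%. Other fork and origin genes (42) had 31 positive values and a median of 0.26. Ticrr, which helps load Cdc45 onto MCM, was 4.09 ± 0.632 CPM in WT and 12.3 ± 4.31 in KO (1.59, SE 0.36, edgeR adjusted p = 0.417), and the checkpoint adaptor Clspn was 2.47 ± 0.246 and 8.24 ± 5.32 (1.72, SE 0.55). In both, each KO library lay above each WT library, by unlike margins. The lowest KO value of Ticrr was 7.223 CPM against a highest WT value of 4.702. That of Clspn, in the library labelled KO replicate 1, was 2.653 CPM against 2.646 in WT replicate 2. At the receptor gene rate, 57.2% of the KO replicate 2 count of Ticrr and 33.9% of that of Clspn would be such counts. Timeless was 2.58 ± 1.17 and 8.87 ± 4.6 (1.76, SE 0.52), Dnmt1, the maintenance methyltransferase, 122 ± 53.2 and 146 ± 42.5, and Top1, a topoisomerase, 291 ± 14.5 and 195 ± 58.1 (-0.58, SE 0.26). Orc4, an origin recognition subunit expressed at 136 ± 15.4 CPM in WT, was 99.4 ± 11.8 in KO (-0.45, SE 0.20, edgeR adjusted p = 0.782), each KO library below each WT library, unlike Orc1.

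Genes of cell cycle entry and of the replication checkpoint had no call in edgeR. The E2F and G1 to S control list (31 tested) had 19 positive values, 11 negative and a median of 0.17, close to all genes tested (61.9% positive, median 0.16). Fbxo5, an inhibitor of the anaphase-promoting complex that also protects geminin, was 1.14 ± 0.319 CPM in WT and 4.06 ± 1.21 in KO (1.83, SE 0.52, edgeR adjusted p = 0.563), and Ccna2, the cyclin of S and G2 phase, was 7.63 ± 3.53 and 22.1 ± 13 (1.54, SE 0.53). E2f7 was 0.79 (SE 0.40). The most abundant members were Ccnd2, a D cyclin (-0.32, SE 0.50), Cdkn1a, a CDK inhibitor (-0.66, SE 0.33), and Cdk6 (0.42, SE 0.32). Checkpoint and fork repair genes (19) had a median of 0.55 and 14 positive values. Chek1, the checkpoint kinase, was 4.14 ± 1.1 CPM in WT and 8.82 ± 1.35 in KO (1.09, SE 0.30, edgeR adjusted p = 0.553), each KO library above each WT library, Brca1 was 1.32 (SE 0.43) and Exo1 1.83 (SE 0.74). Of its most abundant genes, Msh6 was -0.40 (SE 0.27), with each KO library below each WT library, Atr 0.09 and Polh -0.19. Other nucleotide supply genes (18) had a median of 0.13, with Dctd at 1.01, Cad at 0.74 and Nme1 at 0.72, and the abundant Samhd1, Impdh2 and Paics at -0.22, -0.15 and 0.09.

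Of 4 markers of cycling cells, Mki67 and Top2a had each KO library above each WT library, against 3.4% of all genes, and Ccnb1 and Cdk1 did not. Ccnb1 was 4.478 to 9.592 CPM in WT and 5.822 to 27.64 in KO, and Cdk1 2.11 to 5.226 and 4.871 to 14.26. Mki67 was 63 to 101.7 CPM in WT and 104.4 to 364.8 in KO, and Top2a 27.28 to 44.25 and 49.48 to 109.6 (1.45, SE 0.46, and 1.19, SE 0.32, edgeR adjusted p = 0.58 and 0.538). Limma voom with sample quality weights called Mki67 (1.55, adjusted p = 0.0323) and Top2a (1.16, 0.0308) higher, against 3.43% of all genes, and not Ccnb1 or Cdk1. DESeq2 called Top2a alone of the 4 (adjusted p = 0.0492), against 0.574%. Among libraries ending in br alone, Mki67 was 0.52 and Top2a 0.86, with no call. In Mki67, KO replicate 2 was the lowest KO library and lay just above WT replicate 2. WT replicate 1, which had the highest replication gene levels of the WT libraries, had 73.1 CPM of Mki67, below WT replicate 2 at 101.7. Whether these markers and the replication genes differ in their response was not tested.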

How the data were processed

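Libraries were made from total RNA of back skin epidermis and read as paired ends, per the labels. The deposited files hold raw counts per gene made by the authors, 49315 genes in each of 8 files. The submitters' processing notes name Trimmomatic 0.36, STAR 2.5.2b, featureCounts, Subread 1.5.2 and the builds GRCm38 and GRCh38, with no roles. Identifiers were matched to GENCODE M21 (48970 matched), which gave symbols for all 39 members. Replicate numbers follow accession order, since the labels give none. The members and gene lists were chosen with earlier results of these data known.

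CPM, used for levels, divides counts by the TMM-scaled library total. KO was compared with WT by edgeR 4.0.16 in R 4.3.3 (quasi-likelihood, robust, filterByExpr, 19239 genes tested, Benjamini-Hochberg over all of them, adjusted p under 0.05). Alternatives were DESeq2 1.42.0, limma 3.58.1 voom with and without sample quality weights, other scalings, no filter, label ending as a covariate, libraries left out, and 2 added after seeing the data: subtraction of the receptor gene rate, and leaving out each library in the weighted fit. Each member was described; those given by library are, in each role, the 2 with the smallest p and the 1 with the smallest absolute log2 fold change, and others where libraries stood apart, chosen after their values were seen. Of each other list, the 3 most abundant genes and the 3 of largest absolute log2 fold change with a mean of at least 2 CPM were named. Rfc2 was named beside Rfc3 after its values were seen.

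On simulated counts for 18302 genes of the KO against WT comparison, edgeR recovered 2.13% of genes changed by a log2 fold of 1 and 35.4% of those changed by 2, with 2 false calls.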

Additional observations from a re-analysis of the deposited data

Results flagged for a closer look

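In 3 of the 39 replication genes, 1 of the 5 KO libraries stood far from the other KO libraries, by a test that flags about 1 in 20 groups by chance. Gmnn was 5.036 CPM in KO replicate 2. Dut was 11.46 CPM in KO replicate 2. Rfc4 was 7.296 CPM in the library labelled KO replicate 1.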

How the results depend on the processing

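No member was called in edgeR under any scaling or with any 1 library left out. Members called higher numbered 5 with sample quality weights (0 to 7 with 1 library left out) and 3 with WT replicate 3, the library labelled KO replicate 1 and KO replicate 2 left out together. Of the 110 related genes tested, 15 were called higher and 2 lower in the weighted fit, against 3.43% and 3.17% of all genes. With those 3 libraries left out 14 and 3 were called, against 5.25% and 5.32%, and in DESeq2 1 was called higher, against 0.574%. The members' median was 0.21 (without WT replicate 2) to 0.68 (without WT replicate 1) with 1 library left out. Members with each KO library above each WT library numbered 1 with DESeq2 size factors (3.21% of all genes), 2 among br libraries (8.62%), 15 with 3 libraries left out (23.2%), and 0 to 12 with 1 left out (3.11% to 9.34%). Within KO, DESeq2 called 1 member lower in bl (7.23% of all genes) and 0 higher (1.23%), edgeR with no filter 1 higher (1.09%) and 1 lower (4.41%), and edgeR with 1 library left out 0 to 9 higher and 0 to 3 lower. Log2 fold changes changed sign as follows, and the cause was not tested. Gmnn was -0.06 in DESeq2, -0.32 in voom, -0.03 with DESeq2 size factors, -0.04 with no filter and 0 after subtraction, where Gins3 was -0.01. Rfc5 was 0.03 with library totals. In the weighted fit Cdc6 was -0.13, Gmnn -0.28 and Pcna -0.12. With the label ending as a covariate, Mcm4 was -0.1, Mcm6 -0.12, Pola1 -0.36, Pcna -0.05, Rfc4 0.52, Fen1 -0.51, Rrm1 -0.23 and Tyms -0.07. Among br libraries, Mcm4 was -0.2, Mcm6 -0.22, Mcm7 -0.03, Pola1 -0.45, Pcna -0.14, Rfc4 0.51, Fen1 -0.59, Rrm1 -0.33, Tyms -0.18 and Chaf1b -0.03. With the 3 libraries left out, Cdc6 was -0.15, Gmnn -0.31, Pcna -0.29 and Tyms -0.08. With 1 library left out, the ranges were -0.33 to 0.65 for Cdc6, -0.21 to 0.21 for Cdt1, -0.57 to 0.32 for Gmnn, -0.61 to 1.5 for Gins3, -0.01 to 0.71 for Mcm6, -0.15 to 0.19 for Mcm7, -0.07 to 0.35 for Pola1, -0.1 to 0.54 for Prim1, -0.33 to 0.33 for Pcna, -0.5 to 0.35 for Rfc4, -0.24 to 0.07 for Rfc5, -0.17 to 0.23 for Rrm1, -0.59 to 0.43 for Tk1 and -0.2 to 0.65 for Tyms. No paired analysis was possible because the labels give no replicate numbers, and those used here follow accession order. At this depth and spread, log2 fold changes near 1 were seldom recovered in simulated data.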

Other observations

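The 14 members with an E2F match in their promoter all had positive log2 fold changes in edgeR (median 0.6, range 0.11 to 1.14), and of the 18 members with a promoter and no match 14 were positive (median 0.45, range -0.26 to 1.26). The ranges overlap and the difference was not tested. Of other promoter motifs, searched on both strands, CCAAT was found in 59.4% of the 32 members against 41.1% of all genes, TTTGAA or TTCGAA (the cell cycle homology region) in 18.8% against 21.7%, and TATAAA in 6.25% against 15.7%.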
